A study of Mus musculus with 6 samples.

Results

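Neutrophils and other phagocytes carry a NADPH oxidase, an enzyme that passes electrons from NADPH across a membrane to oxygen and so makes superoxide. Its catalytic core sits in the membrane as flavocytochrome b558, a pair of gp91phox (Cybb) and p22phox (Cyba). Cytosolic subunits, among them p47phox (Ncf1) and p40phox (Ncf4), join the core when the cell is stimulated, together with a GTP-bound Rac protein, which in neutrophils is mainly Rac2 and in many other cells Rac1. Loss of the core or of a cytosolic subunit in people causes chronic granulomatous disease.

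The genes described here are Cybb, Cyba, Ncf1, Ncf4, Rac1 and Rac2, chosen by name as subunits of the phagocyte oxidase and the Rac proteins that switch it on. They are 6 of the 55487 genes in the table, each was matched to its symbol through its Ensembl identifier, and all 6 were among the 15020 genes tested, which averaged at least 10 normalized counts.

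RNA was sequenced from 6 samples of GFP+ bone marrow cells on the C57BL/6 background. The donor leukemia was CD45.2(+) Mx1-Cre Brd9fl/fl MA9, where MA9 is the MLL-AF9 fusion oncogene and GFP marks the leukemia cells, and the recipients were irradiated CD45.1(+) CD45.2(-) mice, whose own blood cells can remain in the marrow. The PBS group (n = 3) received PBS and the pIpC group (n = 3) received pIpC at 20 mg/kg, in each case 3 doses every other day from the day after transplantation, with collection 10 days after injection. pIpC imitates viral double-stranded RNA and raises interferon, which switches on Cre from the Mx1 promoter. The donor cells of both groups therefore carry the same Cre and the same floxed Brd9 alleles, and because no pIpC-treated cells without Cre were analysed here, the action of pIpC itself and the loss of Brd9 cannot be told apart. The labels give no age or sex, and whether the recipients of a group shared a single leukemia clone is not given in the sources used here. Xist, the RNA of the inactive X chromosome, and markers of other blood cells differed between the groups, as given below. The sex and the origin of the sequenced cells therefore cannot be told apart from the label either, and their part was not tested. Nothing in the labels says how the replicates of a group were obtained beyond their numbers, so p-values measure the spread between these samples.

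Brd9, the targeted gene, was not lower in the pIpC libraries, at 1835 ± 176 normalized counts in PBS against 2103 ± 139 in pIpC (SD, n = 3 each; log2 fold change 0.20, limma adjusted p = 0.259), so that the second group is called the libraries labelled pIpC. Every library labelled pIpC lay above every PBS library for Brd9 (exact permutation test, 2-sided p = 0.1, the smallest that 3 against 3 allow). According to the paper, Cre removes the exons that encode the bromodomain of the protein, and this efficiently lowered Brd9 mRNA in whole bone marrow of knockout mice. No such fall was seen in these counts. The paper also reports poor depletion of Brd9 in the GFP+ marrow cells of those pIpC-treated leukemic mice that died early. The count sums all exons of Brd9, so it cannot show whether the bromodomain exons were lost. The recovered reads ran from 19277439 to 23586722 per library, and the lowest count of an oxidase gene in any library was 1513 reads. Of all genes tested, 6808 changed at an adjusted p under 0.1 (45.3%), 3750 higher (25%) and 3058 lower (20.4%). PBS replicate 3 stood apart from PBS replicates 1 and 2, and values without it are given beside the results that it moves most.

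Markers of other blood cells also differed between the groups, beside 25% of all genes called higher and 20.4% called lower. Of 15 neutrophil markers, 13 were called higher in the libraries labelled pIpC (median log2 fold change 5.99, or 6.42 without PBS replicate 3), and their summed count went from between 184940 and 294260 in PBS to between 2278875 and 2369253. Among 15 monocyte and macrophage markers 10 were higher and 4 lower (median log2 fold change 2.18), with the largest rises in F13a1 (4.88), Mrc1 (4.55) and Mertk (4.50) and the largest fall in Adgre1 (-3.80), which encodes the macrophage antigen F4/80. Their summed count ran from 39907 to 40128 in PBS and from 46163 to 49887 in the other group. All 15 erythroid and all 15 B cell markers were higher; the erythroid markers Slc4a1 and Rhag were at 0 in every PBS library, as were the B cell marker Ms4a1 and the T and NK cell markers Trac and Prf1. Of 12 eosinophil, basophil and mast cell markers 6 were higher and 3 lower, and of 10 T and NK cell markers tested 9 were higher and 1 lower. The part of these markers in the results below was not tested, and in bulk RNA a change in the number of cells of a type cannot be told apart from a change in RNA per cell.

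Start regions are shown for every oxidase gene for which one was given, whatever its change. Ncf4 and Rac2, which also rose, and Rac1 had none and were not searched. RefSeq start regions (build GRCm38.p6) were given for 3 of the 6 genes, Cybb, Cyba and Ncf1, and each is printed from 250 bases before the start to 30 bases after it. The Cybb window is chrX:9469295-9469574, the Cyba window is chr8:122432911-122433190 and the Ncf1 window is chr5:134229596-134229875, all read on the minus strand. Capitals mark the motif matches listed after the sequences.
Cybb: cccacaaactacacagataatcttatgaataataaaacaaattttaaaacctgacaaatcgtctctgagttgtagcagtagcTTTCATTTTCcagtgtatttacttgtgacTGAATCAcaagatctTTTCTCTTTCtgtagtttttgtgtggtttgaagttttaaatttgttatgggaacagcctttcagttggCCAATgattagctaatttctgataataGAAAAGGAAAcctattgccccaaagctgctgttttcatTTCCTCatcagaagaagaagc
Cyba: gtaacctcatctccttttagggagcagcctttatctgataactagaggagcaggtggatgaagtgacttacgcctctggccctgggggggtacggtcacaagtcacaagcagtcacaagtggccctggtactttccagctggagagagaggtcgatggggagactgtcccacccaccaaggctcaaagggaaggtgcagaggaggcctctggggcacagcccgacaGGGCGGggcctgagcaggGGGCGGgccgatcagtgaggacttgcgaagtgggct
Ncf1: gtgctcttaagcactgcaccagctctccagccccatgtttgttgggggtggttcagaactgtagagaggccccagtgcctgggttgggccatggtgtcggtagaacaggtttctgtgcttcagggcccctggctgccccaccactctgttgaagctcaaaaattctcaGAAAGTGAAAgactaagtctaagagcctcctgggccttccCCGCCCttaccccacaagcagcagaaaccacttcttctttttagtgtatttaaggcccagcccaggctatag

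The motifs were searched on both strands in the same 280 bases of all 32851 start regions, and no matches of different motifs overlapped in these 3 sequences. The interferon response motif, GAAA repeated after a gap of 2 bases of any kind, present in 3.28% of all start regions, matched at 3 places in Cybb (first bases at -168, -124 and -29 from the start) and at 1 place in Ncf1 (-82), with no match in the Cyba window. The Cybb window also held a CCAAT box (letters CCAAT, 36.1% of all start regions) at -56, an AP-1-type match (TGANTCA, 7.46%) at -139 and a PU.1-type ETS match (GAGGAA, 26%) at 10 after the start. GC boxes (GGGCGG, 34.7%) were found at -24 and -6 in Cyba and at -42 in Ncf1. The C/EBP-type letters TTNNGCAA, held by 10.4% of all start regions, were in none of the 3 windows. The windows differed in base composition, with a GC content of 34.3% in Cybb, 60% in Cyba and 53.9% in Ncf1. These matches are letters in a window, and no binding was measured.

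The first question was which oxidase genes differed between the groups. Of the 6 genes, 4 rose in the libraries labelled pIpC (Cybb, Ncf1, Ncf4 and Rac2), none fell, and Cyba and Rac1 did not pass the threshold, against 25% of all genes called higher. The median log2 fold change was 0.69 over the 6 genes and 0.01 over all genes tested. In the same 4 genes all 3 libraries labelled pIpC lay above all 3 PBS libraries, which was the case for 30.5% of the genes tested (26.3% had the reverse, 56.8% either). The shares of all genes called with 1 library left out were 44.4% and 40.5% without PBS replicates 1 and 2, and 33.7%, 31% and 31.6% without replicates 1, 2 and 3 labelled pIpC. Under the other settings they were 44.8% and 45.8% (pseudocounts of 0.1 and 10), 28.4% (no filter), 44.8% (filter raised to 50), 48.7% (values quantile-normalized), 45.6% (values centred on the median), 42.9% (no intensity trend), 40.6% (replicate block), 45.9% (edgeR), 49.6% (DESeq2), 51.4% (length trend removed), 45.9% (GC trend removed) and 35.7% (threshold of 0.05).

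**Figure D1:**
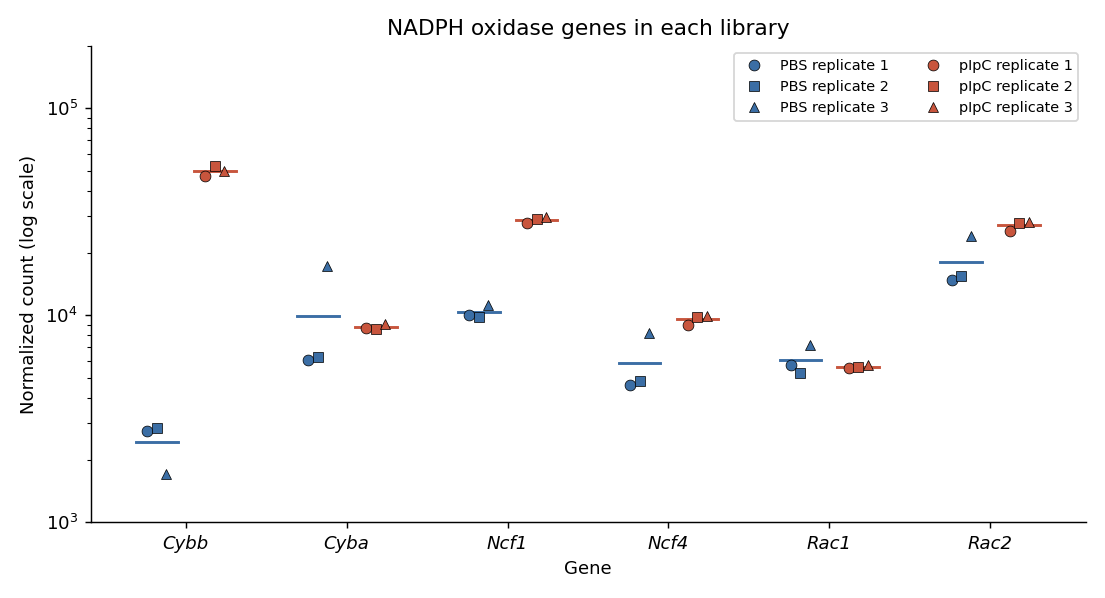
Normalized count (log axis) of each oxidase gene in each of the 6 libraries; symbols mark the replicate number, colours the group, and the horizontal line the mean of 3 libraries. Cybb lies between 1712 and 2847 in PBS and between 47001 and 52454 in the libraries labelled pIpC, while PBS replicate 3 (triangle) is the highest PBS library for every gene other than Cybb.

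Cybb (ENSMUSG00000015340), which encodes the catalytic subunit that holds the flavin and both hemes, lies on chromosome X of GRCm38 from 9435252 to 9487771 on the minus strand. PBS replicates 1 to 3 gave 2772, 2847 and 1712 normalized counts, and the libraries labelled pIpC gave 47001, 52454 and 49785. The lowest of the latter was thus far above the highest PBS library, and the spread within each group was small beside the difference. Cybb rose by 4.38 on the log2 scale (SE 0.22, limma adjusted p = 3.12e-05), or 20.9-fold, and its 95% confidence interval ran from 3.86 to 4.90 on the log2 scale. A larger rise was seen in 4.09% of the genes tested. By mean count Cybb stood at rank 1710 of all genes in PBS and at rank 28 in the other group. PBS replicate 3 was the lowest library for Cybb, and leaving it out gave 4.14 on the log2 scale (17.7-fold, adjusted p = 4.61e-09 from limma). Xist, the RNA of the inactive X chromosome, differed between the groups as well, at 46.6 ± 28.8 against 21515 ± 4104 normalized counts (SD, n = 3 each), and the 448 X-linked genes tested had a median log2 fold change of 0.15. Whether the sex of the cells has a part in the rise of Cybb was not tested.

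Cyba (ENSMUSG00000006519; chromosome 8, 122424776 to 122432930, minus strand) encodes p22phox, the small membrane subunit that stabilizes gp91phox and docks p47phox. PBS replicates 1 to 3 held 6056, 6294 and 17387 normalized counts of Cyba, against 8637, 8585 and 9036 under the pIpC label. All 3 libraries labelled pIpC lay above PBS replicates 1 and 2 and below PBS replicate 3, so the groups overlapped. Its log2 fold change of 0.01 (SE 0.40) did not pass (limma adjusted p = 0.993), and its 95% confidence interval of -0.95 to 0.96 spans folds from 0.519 to 1.94. Without PBS replicate 3 Cyba was called higher, with a log2 fold change of 0.50 (1.42-fold, adjusted p = 0.000134 from limma).

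Ncf1 (ENSMUSG00000015950; chromosome 5, 134220053 to 134229625, minus strand) encodes p47phox, the organizer that carries the cytosolic complex to the membrane once it is phosphorylated. It had 10051, 9790 and 11145 normalized counts in the PBS group, against 27858, 29100 and 29955 under the pIpC label. The groups did not overlap, and Ncf1 was the gene in which PBS replicate 3 departed least from the other PBS libraries, at 1.12 times their mean. Ncf1 rose by 1.49 on the log2 scale (SE 0.13, limma adjusted p = 0.000251), or 2.81-fold with a 95% confidence interval of 2.25 to 3.51. Of its 3663 exon bases, 408 (11.1%) are also exon of Gtf2ird2 on the other strand, a gene with far fewer reads (679 ± 91.5 and 1281 ± 95.2 normalized counts, SD, n = 3 each) that was also called higher.

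Ncf4 (ENSMUSG00000071715; chromosome 15, 78244801 to 78262580, plus strand) encodes p40phox, which binds the lipid phosphatidylinositol 3-phosphate of phagosome membranes. Normalized counts of 4587, 4805 and 8165 in the PBS group compared with 9012, 9809 and 9870 under the pIpC label. PBS replicate 3 came close to the libraries labelled pIpC without reaching them. Ncf4 rose by 0.76 on the log2 scale (SE 0.23, limma adjusted p = 0.0437). This call was lost when any library other than PBS replicate 3 was left out, with adjusted p from 0.106 to 0.137, whereas without PBS replicate 3 the log2 fold change was 1.03 (adjusted p = 3.08e-06 from limma).

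Rac2 (ENSMUSG00000033220; chromosome 15, 78559167 to 78572783, minus strand) encodes the Rac GTPase of blood cells. It had 14838, 15498 and 24028 normalized counts in the PBS group, against 25398, 27780 and 28327 under the pIpC label, so that PBS replicate 3 lay just under the lowest of these. Rac2 rose by 0.62 on the log2 scale (SE 0.22, limma adjusted p = 0.0667), and the call was lost without any single library other than PBS replicate 3 (adjusted p from 0.140 to 0.194). Without PBS replicate 3 the log2 fold change was 0.84 (adjusted p = 2.09e-05 from limma).

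Rac1 (ENSMUSG00000001847; chromosome 5, 143503634 to 143528036, minus strand) encodes the Rac GTPase found in nearly all cells. Its normalized counts of 5780, 5286 and 7168 in PBS and 5587, 5613 and 5732 in the libraries labelled pIpC overlapped. Its log2 fold change was -0.09 (SE 0.15, limma adjusted p = 0.637; 95% confidence interval -0.44 to 0.25), and 0.03 without PBS replicate 3. Of its 4496 exon bases, 2309 (51.4%) are also exon of Daglb on the other strand, and reads from these bases cannot be told apart in libraries that do not keep strand. Daglb itself had 1393 ± 325 normalized counts in PBS and 1009 ± 65.3 in the other group (SD, n = 3 each; adjusted p = 0.127 from limma). Between genes of different loci, sharing of sequence was small: of the 50-base words in the transcripts of each gene, none of Cybb or Ncf4, 2.39% of Cyba and 1.29% of Rac2 occurred in transcripts of other genes.

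PBS replicate 3 departed from the other PBS libraries in step with the length of the genes. Relative to the mean of PBS replicates 1 and 2, its log2 level had a median of 0.75 among the genes with 942 to 1735 exon bases, where Cyba (1039 bases) falls, and of -0.31 among those from 5632 to 6949 bases, where Cybb (5808 bases) falls. Cyba itself was at 1.49, with 8.26% of the genes of its length group higher, and Cybb at -0.71. Ncf4 (2020 bases) was at 0.80, Rac2 (3103 bases) at 0.66, Rac1 (4496 bases) at 0.37 and Ncf1 (3663 bases) at 0.17. With the trend of each library with exon length removed, a step chosen after seeing the data, Cyba had a log2 fold change of 0.36 and still did not pass (adjusted p = 0.225 from limma), Ncf4 was at 0.98 (adjusted p = 0.000787) and Rac2 at 0.72 (adjusted p = 0.0101).

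**Figure D2:**
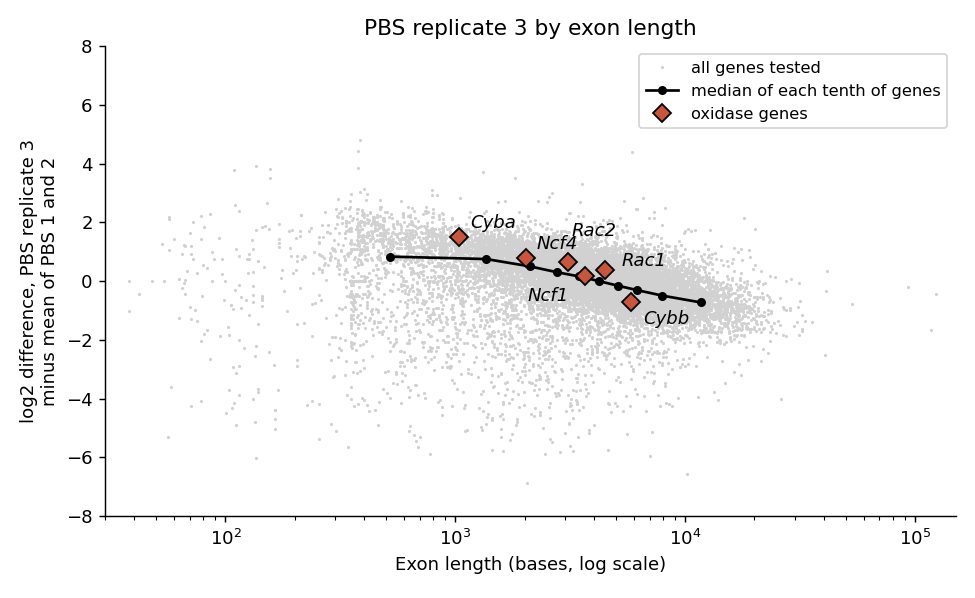
Log2 level of each tested gene in PBS replicate 3 minus the mean of PBS replicates 1 and 2 (vertical axis) against its exon length in bases (log axis); grey points are genes, the black line joins the medians of 10 groups of about equal size and diamonds are the oxidase genes. The medians run from 0.83 in the shortest genes to -0.73 in the longest, and Cyba at 1.49 and Cybb at -0.71 lie at opposite ends among the 6 genes.

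**Figure D3:**
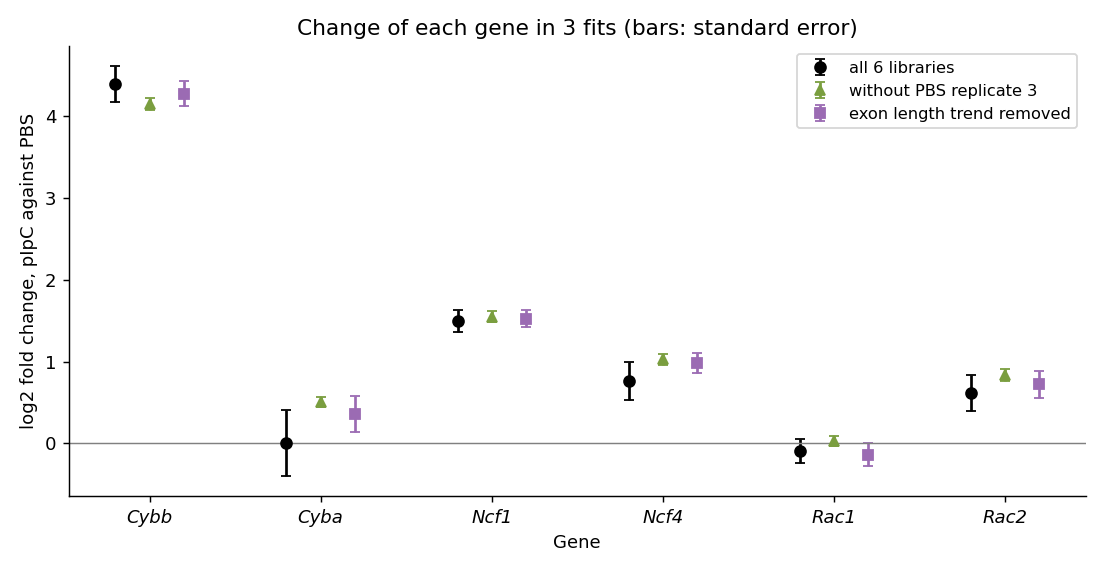
Log2 fold change of each oxidase gene (vertical axis, libraries labelled pIpC against PBS) with all 6 libraries, without PBS replicate 3, and with each library's trend with exon length removed; bars are the standard error. Cybb lies between 4.14 and 4.38 and Ncf1 between 1.49 and 1.55 in all 3 fits, while Cyba moves from 0.01 to 0.50 without PBS replicate 3.

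Levels of different genes were compared as normalized counts per kilobase of exon. In the PBS libraries the order of the 6 genes was Cyba (9540 ± 6231), Rac2 (5840 ± 1652), Ncf4 (2897 ± 993), Ncf1 (2820 ± 196), Rac1 (1352 ± 217) and Cybb (421 ± 109; SD, n = 3 each). Cyba and Rac2 overlapped, as did Ncf4 and Ncf1, and the other neighbours in this order did not. The means of PBS replicates 1 and 2 alone were 5943 for Cyba, 4888 for Rac2, 2708 for Ncf1, 2325 for Ncf4, 1231 for Rac1 and 484 for Cybb, an order in which Ncf1 and Ncf4 change places. Cybb, the catalytic subunit, was the least abundant of the 6 per kilobase with or without PBS replicate 3. In the libraries labelled pIpC the order was Rac2 (8755 ± 502), Cybb (8565 ± 470), Cyba (8424 ± 237), Ncf1 (7909 ± 288), Ncf4 (4735 ± 237) and Rac1 (1255 ± 17.2). Here Rac2 overlapped Cybb and Cybb overlapped Cyba, so the membrane pair stood at about the same level. Exon bases shared with a gene on the other strand can be left out of the length while the full count is kept. The resulting level is right only if no read from the shared bases was counted, which was not tested. With the bases shared with Daglb left out in this way, Rac1 would be at 2779 ± 446 in PBS, a level that overlaps those of Ncf1 and Ncf4. In the other group Rac1 would be at 2581 ± 35.4, still the lowest of the 6 there. Ncf1, with the bases shared with Gtf2ird2 left out in the same way, would be at 3173 ± 221 in PBS, above the mean of Ncf4. On the same untested condition, in the other group Ncf1 would be at 8900 ± 324, the highest mean of the 6, and would overlap Rac2, Cybb and Cyba. On its full exon length it lay below Cyba there, without overlap.

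Ratios within a library do not depend on the size factor it was divided by. The ratio of Cybb to Cyba per kilobase stood at 0.0819, 0.0809 and 0.0176 in the PBS group, against 0.973, 1.09 and 0.986 under the pIpC label, so the catalytic subunit went from far below its partner to about its level. On the log2 scale the difference was 4.38 (20.8-fold), and 3.64 (12.5-fold) without PBS replicate 3, which had the lowest ratio by far. The ratio of Rac2 to Rac1 was 3.72, 4.25 and 4.86 in PBS and 6.59, 7.17 and 7.16 in the other group, a 1.64-fold difference (1.75-fold without PBS replicate 3), and Rac2 made up between 78.7% and 82.6% of the summed level of Rac1, Rac2 and Rac3 in PBS and between 86.6% and 87.6% in the other group. With the bases shared with Daglb left out of the length of Rac1, the ratios would run from 1.81 to 2.36 in PBS. In the other group they would run from 3.20 to 3.49. The Rac2 share would run from 64.3% to 70.0% and from 76.1% to 77.6%. This divides the ratio by the same factor in every library, so it could not have made the groups overlap. The ratio of Ncf1 to Ncf4 was 1.21, 1.12 and 0.753 in PBS and 1.70, 1.64 and 1.67 in the other group, a 1.66-fold difference (1.43-fold without PBS replicate 3). Leaving out the bases shared with Gtf2ird2 would raise this ratio by the same factor in every library, so its fold difference would not change. The groups did not overlap in any of the 3 ratios, and each reached the smallest p that 3 against 3 allow (exact permutation test, 2-sided p = 0.1, and 0.1 after adjustment over 3 ratios), which cannot pass 0.05.

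**Figure D4:**
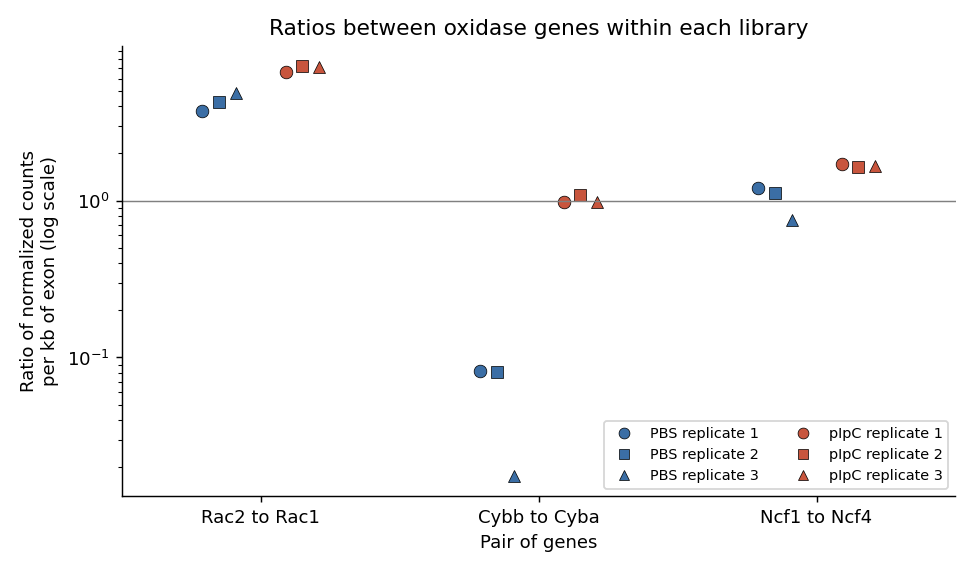
Ratio of normalized counts per kilobase of exon (log axis) for 3 pairs of oxidase genes in each library; symbols mark the replicate and colours the group, and the line marks equal levels. The Cybb to Cyba ratio lies between 0.0176 and 0.0819 in PBS and between 0.973 and 1.09 in the libraries labelled pIpC.

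The profiles of log2 normalized counts over the 6 libraries were compared between the oxidase genes. Ncf4 and Rac2 correlated at r = 0.999, Cybb and Ncf1 at r = 0.983 and Cyba and Rac1 at r = 0.889. Ncf1 was at r = 0.857 with Ncf4 and r = 0.850 with Rac2, and Cybb at r = 0.750 with Ncf4. Cybb and Cyba were at r = -0.10 (n = 6 libraries, all given as a description). The libraries share the difference between the groups and the departure of PBS replicate 3. Of 10472 genes averaging at least 100 normalized counts, 400 had r above 0.99 with Cybb and 266 with Ncf1. The number was 35 for Cyba, 31 for Ncf4, 23 for Rac2 and 13 for Rac1. Outside the 6 oxidase genes, those closest to Cybb were Slc2a3, which encodes a glucose transporter, and Gimap6 (r of 0.9999 and 0.9997). Closest to Ncf1 were Rflnb, Tie1 and Id2, an inhibitor of basic helix-loop-helix factors (r from 0.9996 to 0.99996). Aldh3b1, an aldehyde dehydrogenase, and Atp6v0c, a subunit of the vacuolar proton pump, were among the 3 such genes closest to both Ncf4 and Rac2 (r from 0.9974 to 0.9995), with Rbm43 the other for Ncf4 and Pkm, a pyruvate kinase, for Rac2. Cyba was closest to Kctd2, Pgls and Gm29216 (r from 0.9975 to 0.9984), and Rac1 to Fam122a, 2310009A05Rik and Anapc7 (r from 0.9960 to 0.9985).

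Of 18 partner and homolog genes of the oxidase, 10 were tested, 4 were called higher and none lower (40%, beside 45.3% of all genes). Cybc1, a chaperone of the membrane core, was at -0.01 (adjusted p = 0.969). Hvcn1, a proton channel that offsets the charge moved by the oxidase, rose from 1030 ± 59.0 to 2988 ± 73.9 normalized counts (log2 fold change 1.54, adjusted p = 9.88e-05 from limma). Rap1b, a small GTPase, rose by 0.71 on the log2 scale (adjusted p = 0.00405), and its relative Rap1a was at 0.22 (adjusted p = 0.387). S100a8 and S100a9, abundant calcium-binding proteins of neutrophils that bring arachidonic acid to the oxidase, rose by 5.93 and 6.30, but both are neutrophil markers too. Clcn3, a chloride-proton exchanger, was at 0.63 (adjusted p = 0.134), Rac3, the third Rac gene, at 0.10 on 24.2 to 25.4 mean normalized counts, and Noxo1, the organizer of the NOX1 oxidase, at -0.93 (adjusted p = 0.175). The homologs with their own catalytic subunits were near or at 0: Nox3, Nox4 and Duox2 had no read in any library, which allows up to 3 reads in each, and Nox1 and Duox1 stayed under 5 normalized counts.

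**Figure D5:**
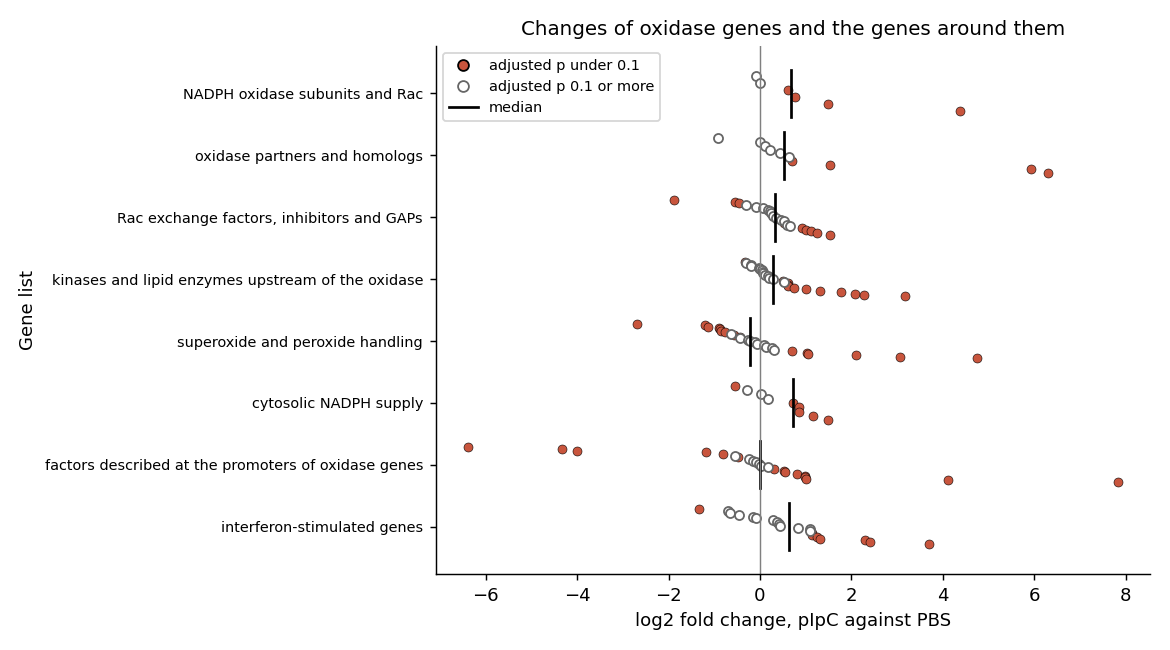
Log2 fold change (horizontal axis, libraries labelled pIpC against PBS) of every tested gene in 8 gene lists; filled points passed an adjusted p under 0.1, open points did not, and the vertical bar is the median of the list. Cybb at 4.38 is the rightmost of the 6 oxidase genes, and the median of the list is 0.69.

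Regulators of Rac were called about as often as genes in general, 10 of 22 tested (45.5%), 7 higher and 3 lower, with a median log2 fold change of 0.32, or 0.12 without PBS replicate 3 and 0.14 with the length trend removed. Bcr, which holds a domain that switches Rac off, rose by 1.53 (adjusted p = 0.00232 from limma), Arhgap25, a Rac GTPase-activating protein of blood cells, by 1.25 and Dock5, a Rac exchange factor, by 1.12. Among those that turn Rac off, Chn2 fell by 1.87 (adjusted p = 0.000452) and Arhgap15 by 0.47; Swap70, which binds Rac, fell by 0.54. The exchange factors Vav1 (5326 ± 83.4 against 5603 ± 174 normalized counts, SD, n = 3 each) and Dock2 (log2 fold change 0.25), and the inhibitors Arhgdia (-0.09) and Arhgdib (0.35), did not pass.

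Of 25 kinases and lipid enzymes upstream of the oxidase, 11 were higher and 1 lower (48%, near the 45.3% of all genes called). Their median log2 fold change was 0.29. Prkca, a protein kinase C, rose by 3.17 from a low level of 16.4 ± 4.09 to 156 ± 40.3 normalized counts (SD, n = 3 each; adjusted p = 0.000335 from limma). Pik3r5, the regulatory subunit of phosphoinositide 3-kinase gamma, rose by 2.28 and Fgr, a Src-family kinase of myeloid cells, by 2.08. Prkcd and Prkcb, the protein kinase C forms known to phosphorylate p47phox in neutrophils, were at 0.11 and -0.01 and did not pass (adjusted p = 0.503 and 0.957). Pik3c3, the lipid kinase that makes the phosphatidylinositol 3-phosphate bound by p40phox, fell by 0.32 (adjusted p = 0.0897).

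Among the genes that supply NADPH, the substrate of the oxidase, 5 were higher and 1 lower of 9 tested (66.7%, beside 45.3% of all genes). Their median log2 fold change was 0.71. G6pdx, the entry enzyme of the pentose phosphate pathway, rose from 4350 ± 260 to 12134 ± 753 normalized counts (SD, n = 3 each; log2 fold change 1.48, adjusted p = 0.000175 from limma). Nadk, the kinase that makes NADP from NAD, rose by 1.16 and Rpe, an epimerase of the pathway, by 0.85. Idh1, a cytosolic isocitrate dehydrogenase, fell by 0.56, and Pgd, the next NADPH-making enzyme of the pathway, was at 0.18 (adjusted p = 0.325).

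Genes that handle superoxide and peroxide went both ways, with 6 higher and 9 lower of 25 tested (60%, beside 45.3% of all genes). Their median log2 fold change was -0.21, or -0.053 without PBS replicate 3 and -0.028 with the length trend removed. Mpo, which turns hydrogen peroxide into hypochlorous acid in neutrophil granules, rose from 5112 ± 314 to 136726 ± 7159 normalized counts (SD, n = 3 each; log2 fold change 4.74, adjusted p = 1.37e-05 from limma). Hmox1, the heme-degrading oxygenase, rose by 3.06 and Epx, the peroxidase of eosinophils, by 2.10. In the other direction, Srxn1, which repairs peroxiredoxins, fell by 2.70, Gpx3, a glutathione peroxidase, by 1.20 and Sod1, the cytosolic superoxide dismutase, by 1.14 (adjusted p = 0.000136, 0.0125 and 0.0429 from limma). Sod1 had 7751 normalized counts in PBS replicate 3 beside 3263 and 3010 in PBS replicates 1 and 2, and without it Sod1 fell by 0.71 on the log2 scale (adjusted p = 3.03e-05 from limma).

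Factors described at the promoters of oxidase genes also differed in both directions, with 9 higher and 6 lower of 22 tested (68.2%, beside 45.3% of all genes). Their median log2 fold change was -0.0039. Spi1, which encodes PU.1, was at -0.09 and did not pass (adjusted p = 0.776 from limma), with its highest count in PBS replicate 3 (10376 beside 6105 and 5909). Hoxa10, Hoxa9 and Meis1, homeobox genes active in MLL-AF9 leukemia, were lower, with log2 fold changes of -6.38, -4.32 and -4.01; Hoxa10 went from 1537 ± 135 to 17.8 ± 4.87 normalized counts (SD, n = 3 each). Satb1, a chromatin organizer, rose by 7.84 from 6.91 ± 4.19 to 1597 ± 174 normalized counts, Gata1, which is also an erythroid marker, by 4.11, and Irf2, an interferon regulatory factor, by 1.01. Of 20 interferon-stimulated genes, 7 were higher and 1 lower (40%, beside 45.3% of all genes), with a median of 0.63. The rises were led by Oasl2 (3.69), Rsad2 (2.41) and Gbp2 (2.30), with Oas1a at -1.34. Oasl2 had 745, 319 and 226 normalized counts in replicates 1, 2 and 3 labelled pIpC. Without the first of these libraries the median of the list was 0.22, and without the second or the third 0.85 or 0.92.

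Without PBS replicate 3, 65.1% of all genes were called, 34.5% higher and 30.6% lower, and the counts around the oxidase rose too. Of the 6 oxidase genes 5 were then called higher, of the 10 partner genes 7 higher and 1 lower, of the Rac regulators 10 higher and 4 lower, and of the upstream kinases and lipid enzymes 15 higher and 4 lower. The genes of NADPH supply then gave 7 higher and 1 lower, those of superoxide and peroxide handling 11 in each direction, the promoter factors 10 higher and 9 lower, and the interferon-stimulated genes 9 higher and 2 lower. The neutrophil markers gave 14 higher of 15.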

How the data were processed

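The authors deposited normalized gene counts, here treated as a signal, in which each library's read counts were divided by a single size factor; 100% of values were whole multiples of a step (tolerance 0.02), from which the reads were recovered. The submitters' processing notes name HISAT2 (2.2.1), SAMtools, Subread featureCounts and edgeR on GRCm38, whereas the paper's methods describe STAR and RSEM; the labels state unstranded libraries and GFP+ cells, the paper stranded libraries and c-Kit+ cells. No column was left out.

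Genes averaging at least 10 normalized counts were tested on log2(normalized count + 1) by limma (3.58.1, in R 4.3.3) with its intensity trend and Benjamini-Hochberg adjustment over 15020 genes, at a threshold of 0.1; the pseudocount understates fold changes of low genes. Ratios and Brd9 had exact permutation tests (scipy 1.17.1). Exon lengths and positions came from GENCODE M21 on GRCm38, with exons of all transcripts merged. The alternatives were pseudocounts of 0.1 and 10, removal of the filter or its increase to 50, quantile and median-centred values, no trend, a replicate block, each library left out, edgeR (4.0.16) and DESeq2 (1.42.0) on recovered reads, and a threshold of 0.05. Removal of length or GC trends was chosen after seeing the data. So was leaving the exon bases that Rac1 shares with Daglb and Ncf1 with Gtf2ird2 out of the lengths, with no reads removed. The procedure was tested on simulated data.

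The oxidase genes, gene lists and motifs were chosen with earlier results of these data known. Genes named are the 6 oxidase genes, all tested partners, the 3 largest rises and falls past the threshold in each pathway list, the 3 genes outside the 6 closest to each oxidase gene and Brd9; other genes were chosen after their values were seen. Some genes that this rule takes are not reported here. Counting error is covered by the spread between libraries.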

Additional observations from a re-analysis of the deposited data

How the results depend on the processing

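Of 327 comparisons of a result with an alternative, 290 were counted as kept. Single genes had to keep their direction and side of the threshold, and medians and ratios to move no more than the spread between replicates. Counts of called genes were judged more loosely, by a fold limit. The 9783 genes called without PBS replicate 3, against 6808 with all libraries, were thus counted as kept. Cybb and Ncf1 were called higher under every alternative run, Cybb from 4.14 to 4.51 and Ncf1 from 1.45 to 1.63 on the log2 scale. Leaving out a library moved Cyba from -0.26 to 0.50, Ncf4 from 0.61 to 1.03, Rac1 from -0.19 to 0.030 and Rac2 from 0.49 to 0.84, and the number of oxidase genes called from 2 to 5; fewer samples enter these fits. Cyba was also below 0 with median-centred values (-0.032), edgeR (-0.20) and DESeq2 (-0.18), never past the threshold, and Rac2 (0.62) did not pass 0.05.

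Deviations from the group means correlated between libraries of equal number at -0.117, 0.143 and 0.0405 for replicates 1, 2 and 3, so they were not taken as pairs. The replicate block left 4 oxidase genes called, and Cybb at 4.38 (adjusted p = 0.00023 from limma) and Rac2 at 0.62 (adjusted p = 0.0961); it changed no call of an oxidase gene or of Brd9.

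With quantile normalization the median over all genes was -0.12 (0.01 as deposited); it called 3244 higher and 4078 lower genes, against 3750 and 3058, and moved the Rac2 to Rac1 difference to 1.00. The cause was not tested.

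The median of the upstream kinases and lipid enzymes was 0.19 under quantile normalization, 0.12 with the length trend removed and 0.22 to 0.40 with a library left out. That of the NADPH supply genes was 0.45 with no filter and 0.57 to 0.90 with a library left out. That of the promoter factors was -0.11 under quantile normalization, 0.069 with the GC trend removed and -0.029 to 0.13 with a library left out.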
